A study of Mus musculus with 8 samples.

Results

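Chromosome 9 was examined in array comparative genomic hybridisation of 8 mouse livers, an assay that reads DNA copy number as the ratio of test to reference DNA at each probe. All probes that the array's own annotation places on chromosome 9 were taken, 11940 of 232626 probes after repeated spots were averaged, or 5.43% of the autosomal probes. They ran from position 3000014 to position 123827707 with a median spacing of 7.59 kb, and 69.3% of them carried 1 of 1466 gene names. Between 11763 and 11887 of them had a value on an array. The chromosome was chosen because its level on these arrays was already known to be low in tumour 5, so its level, its share of called probes and its segments are given as descriptions with no test.

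The tumours were 6 hepatocellular carcinomas (HCC) of male C57BL/6 mice carrying a FEAT transgene, aged 16, 21, 20, 18.5, 22 and 12 months in tumours 1 to 6. The transgene encodes FEAT, the protein of Mettl13, which belongs to the methyltransferases, and the sources used here do not give its promoter. The first of the non-tumour livers was a normal liver of a male FEAT transgenic C57BL/6 mouse of 13 months, and the second was a normal liver of a wild-type male C57BL/6 mouse of 6 months. Each non-tumour group thus held 1 array, and nothing states that the tumours' DNA was free of DNA from other liver cells. Every array carried reference DNA from the healthy liver of a male C57BL/6 mouse of 6 months. Tumour 4 came from a mouse with lung metastasis, per the labels.

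Ratios are given as log2 of test over reference DNA, each array centred on its autosomal median, so that 0 is the middle of that array's autosomes and not a fixed copy number. The probe noise, taken from differences between neighbouring probes, was 0.22 in tumour 5 and 0.49 in tumour 4, the lowest and highest among the tumours, against 0.32 in the normal FEAT liver and 0.22 in the wild-type liver. All mice were labelled male, and the Y chromosome had medians of -0.73, 0.10, 0.07, -0.35, -0.37 and -0.06 in tumours 1 to 6, against -0.04 in the normal FEAT liver and 0.08 in the wild-type liver. Precision is limited throughout by the number of arrays.

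As background, an array of this kind averages over all cells of a sample, so that a chromosome missing from some cells gives a ratio between that of a full loss and no loss. Mouse chromosomes have their centromere at the end, and a missing chromosome lowers all of its genes together, whereas a deletion lowers a stretch between breakpoints. Mouse chromosome 9 holds genes of lipid transport (the Apoa1 cluster), drug metabolism (Cyp1a1, Cyp1a2) and the transforming growth factor beta pathway (Tgfbr2, Smad3), together with Keap1, Yap1 and Ctnnb1, which are often discussed in liver cancer.

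The probes were synthetic oligonucleotides, 91.1% of them 60 bases long. Those below are shown in their order along chromosome 9, as the deposited scanner file gives them, with no letters in capitals because each binds as a whole. Yap1, Keap1, Lipc and Ctnnb1 are each shown by 1 probe from the middle of the gene's probes, to mark points near both ends of the chromosome and inside the stretches described further on. The 6 probes named AK033168 make up the small segment that was gained on several arrays, and 3 further probes of that name lie just beyond it and are not shown. Coordinates are those of the array's annotation. The sources used here give neither its genome build nor whether a probe lies in an exon or an intron.
Yap1, chr9:7990201-7990260: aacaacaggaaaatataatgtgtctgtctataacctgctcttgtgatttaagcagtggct
Keap1, chr9:21111387-21111446: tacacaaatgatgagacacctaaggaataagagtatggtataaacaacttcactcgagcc
Lipc, chr9:70909429-70909488: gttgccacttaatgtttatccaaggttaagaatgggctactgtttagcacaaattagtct
AK033168, chr9:110229378-110229437: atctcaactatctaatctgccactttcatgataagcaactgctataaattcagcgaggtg
AK033168, chr9:110235349-110235408: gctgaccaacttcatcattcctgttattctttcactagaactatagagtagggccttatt
AK033168, chr9:110242641-110242700: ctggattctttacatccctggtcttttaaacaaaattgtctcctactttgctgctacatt
AK033168, chr9:110260613-110260672: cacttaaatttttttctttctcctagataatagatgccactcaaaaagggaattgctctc
AK033168, chr9:110271526-110271585: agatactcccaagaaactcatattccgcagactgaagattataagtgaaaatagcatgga
AK033168, chr9:110280631-110280690: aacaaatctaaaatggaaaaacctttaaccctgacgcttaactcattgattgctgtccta
Ctnnb1, chr9:120649364-120649422: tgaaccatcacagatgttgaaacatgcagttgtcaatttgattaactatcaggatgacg

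The first question was how far the whole chromosome departed from the other autosomes of each liver. Chromosome 9 was low along its whole length in tumour 5, and slightly low in tumour 4. Its mean was 0.03, 0.02, 0.05, -0.09, -0.29 and -0.01 in tumours 1 to 6, against 0.00 in the normal FEAT liver and 0.02 in the wild-type liver. Tumours averaged -0.05 ± 0.13 (SD, n = 6), and the values of tumours 1, 2, 3 and 6 lay within 0.05 of those of the non-tumour livers. The median over its probes was 0.01, -0.01, 0.00, -0.13, -0.31 and -0.01 in tumours 1 to 6, against -0.00 in the normal FEAT liver and -0.00 in the wild-type liver. In tumours 4 and 5, chromosome 9 had the lowest mean of the 19 autosomes. The next lowest were chromosome 12 at -0.05 in tumour 4 and chromosome 7 at -0.26 in tumour 5. On the other arrays it ranked from 4th to 12th from the bottom. The SD over tumours, 0.13, was the 2nd highest of the 19 autosomes after that of chromosome 15.

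**Figure D1:**
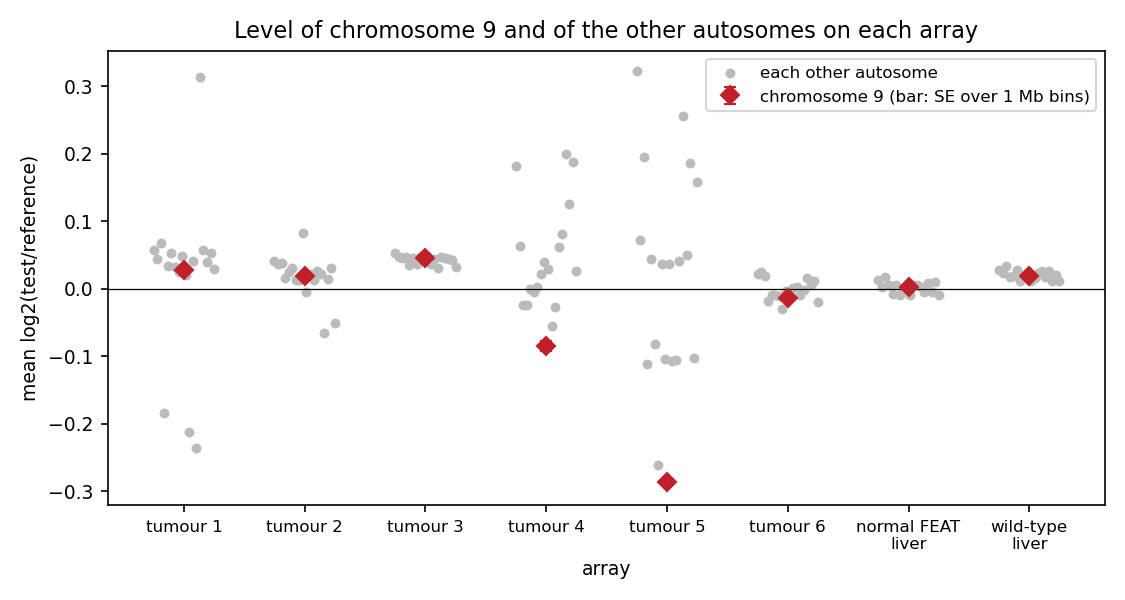
Mean log2 ratio (vertical axis) of chromosome 9 (red diamonds, bars the SE over 121 bins of 1 Mb) and of each other autosome (grey points) on the 8 arrays (horizontal axis). Chromosome 9 is the lowest point at -0.09 in tumour 4 and at -0.29 in tumour 5, and lies among the other autosomes on the remaining arrays.

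At the level of single probes, 48.9%, 50.9%, 49.8%, 59.5%, 87.6% and 51.6% of the chromosome 9 probes with a value lay below 0 in tumours 1 to 6, against 50.2% in the normal FEAT liver and 50.4% in the wild-type liver. When the probes were averaged in 121 bins of 1 Mb with at least 20 probes, all 121 bins of tumour 5 lay below 0, and 118 of them at or below -0.2. Of the bins of tumour 4, 99 lay below 0 and 7 at or below -0.2. The normal FEAT liver had 55 bins below 0 and the wild-type liver 28, and neither had a bin at or below -0.2.

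Tumour 5's bins ran from -0.36 to -0.17, with a median of -0.29. Their highest value was below the lowest bin of every other array except tumour 4, whose bins ran from -0.28 to 0.18. The lowest bins elsewhere were -0.11 in tumour 6, -0.08 in the normal FEAT liver and -0.06 in the wild-type liver. For tumours 4 and 5 the highest bin was the same stretch, the bin starting at 19 Mb, which holds olfactory receptor genes, and the bins starting at 42 and 46 Mb were among the 3 lowest in both.

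**Figure D2:**
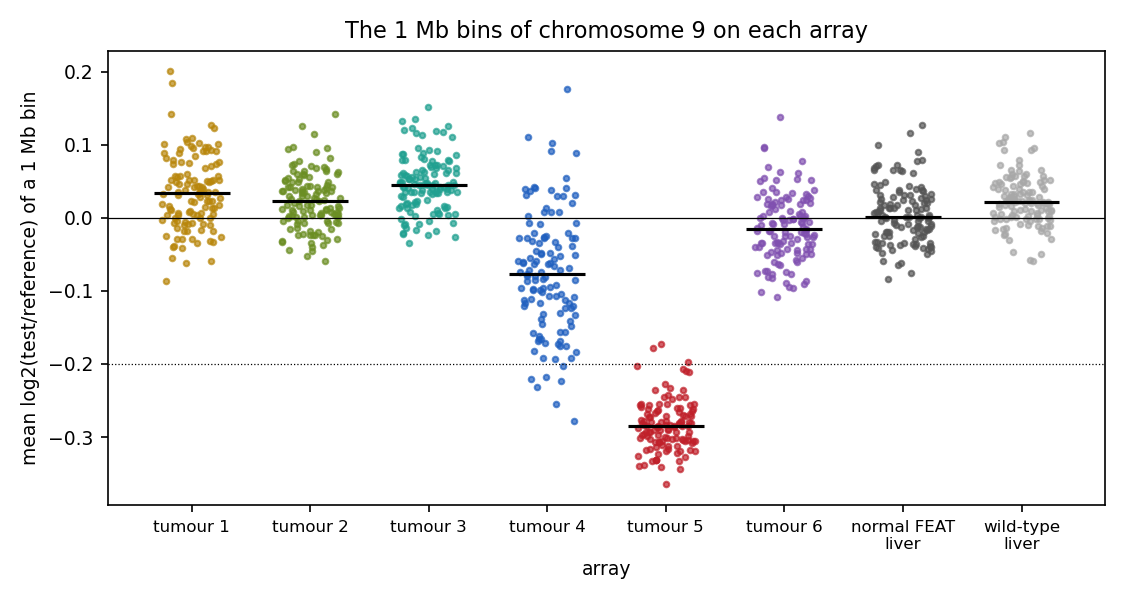
Each point is the mean log2 ratio (vertical axis) of 1 of the 121 bins of 1 Mb of chromosome 9 on an array (horizontal axis), spread sideways for visibility, and the black bars are medians. The bins of tumour 5 lie between -0.36 and -0.17, with 118 of the 121 at or below the dotted line at -0.2. Those of tumour 4 lie between -0.28 and 0.18, and those of the other 6 arrays at or above -0.11.

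The next question was how even the chromosome was from end to end. In tumour 5 the low level changed little from the centromere side to the telomere side. In 10 blocks of equal probe number, from the centromere side on, the means of tumour 5 ran from -0.31 to -0.26, with the first block the highest at -0.26 (SE from probe noise 0.01) and the fourth the lowest at -0.31. Those of tumour 4 ran from -0.15 to -0.02, with the same highest and lowest blocks, as also in tumours 1 and 6. The blocks of the normal FEAT liver ran from -0.02 to 0.02, with its lowest value also in the fourth block. Blocks of the wild-type liver ran from 0.00 to 0.04.

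Subtracting the normal FEAT liver probe by probe, an alternative chosen after the data were seen, left the blocks of tumour 5 between -0.30 and -0.28, a range of 0.03, and those of tumour 4 between -0.13 and -0.04, a range of 0.08. Subtracting the wild-type liver left tumour 5 between -0.31 and -0.29, a range of 0.02, and tumour 4 between -0.16 and -0.06, a range of 0.09. The fall of tumour 5 was thus of nearly the same size in every block of the chromosome, whereas the block values of tumour 4 differed by about as much as its whole-chromosome level.

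**Figure D3:**
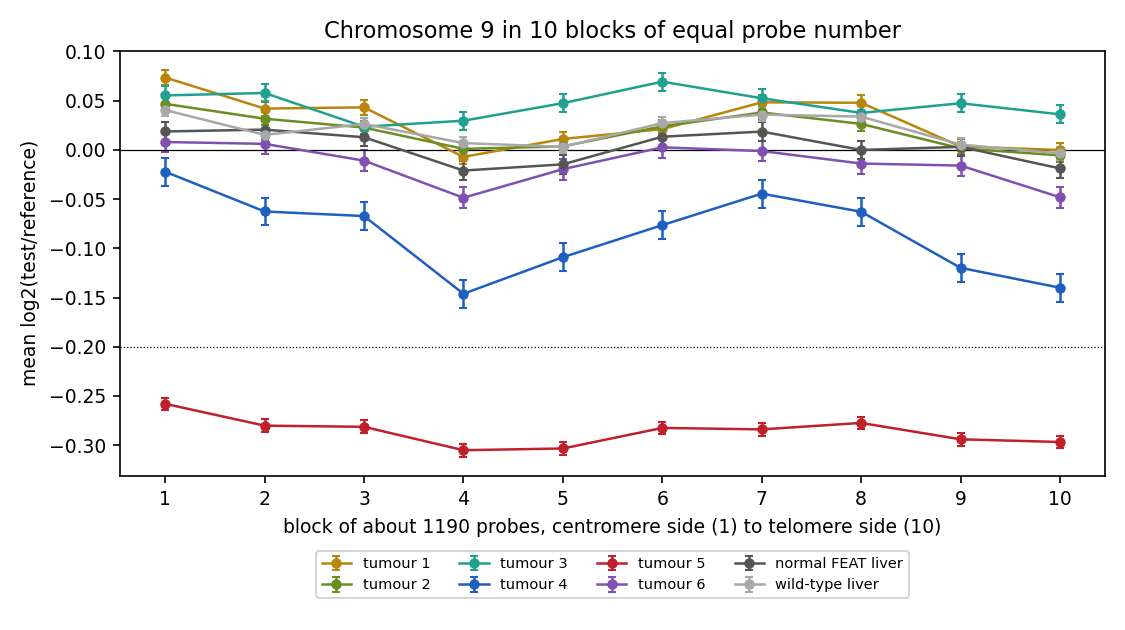
Mean log2 ratio (vertical axis) of 10 blocks of chromosome 9 with equal probe number, from the centromere side to the telomere side (horizontal axis), with 1 line per array and bars for the SE from probe noise. Tumour 5 stays between -0.31 and -0.26, below the dotted line at -0.2, tumour 4 moves between -0.15 and -0.02, and the other 6 arrays stay between -0.05 and 0.07.

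The bins of tumour 5 had an SD of 0.03, 1.44 times the SD that the probe noise alone gives for bins of their size, the 4th lowest such ratio of the 19 autosomes on that array. For chromosome 7, the other low chromosome of tumour 5, the ratio was 1.48. The bins of tumour 4 had an SD of 0.08, 1.57 times the noise. Those of the normal FEAT liver and the wild-type liver had SDs of 0.04 and 0.03, 1.15 and 1.41 times the noise. In tumours 1, 2, 3 and 6 the ratio was 1.79, 1.53, 1.11 and 1.17, so that tumour 1 and not tumour 4 had the highest. Against the normal FEAT liver probe by probe, the ratio for tumour 5 was 1.12. Bin values went down with the GC content of the surrounding probes on all 8 arrays, with Pearson's r over the 121 bins of -0.58, -0.57, -0.18, -0.62, -0.46 and -0.44 in tumours 1 to 6, against -0.37 in the normal FEAT liver and -0.42 in the wild-type liver. These correlations are across bins of the same libraries and are given as descriptions.

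Only departures of a stretch from its own chromosome could be tested, because the level had chosen the chromosome. The mean of the centromere-side probes minus that of the telomere-side probes, divided at position 63430715, was 0.01, 0.00, -0.01, 0.01, 0.00 and 0.00 in tumours 1 to 6, against 0.00 in the normal FEAT liver and -0.00 in the wild-type liver. Tumours minus non-tumour livers came to 0.0037, with p = 0.429 in an exact permutation test, two-sided by absolute difference, over all 28 splits, where the smallest possible p was 0.0357. For tumours 4 and 5 this end-to-end difference was the smallest in absolute size of the 19 autosomes.

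Bin by bin, with each chromosome's mean subtracted on each array, 0 of 121 bins of chromosome 9 differed between tumours and non-tumour livers by limma with Benjamini-Hochberg adjustment over 2373 autosomal bins at 0.05, where 0 of all bins (0%) passed. The lowest adjusted p on chromosome 9 was 0.999. At an unadjusted p under 0.05 there were also 0 bins on chromosome 9, and 20 on all autosomes (0.843%). Nearest to the threshold on the high side were the bins starting at 3, 25 and 4 Mb, with differences of 0.05, 0.05 and 0.05 (SE 0.03, 0.02 and 0.02). On the low side they were the bins starting at 46, 112 and 77 Mb, with -0.06, -0.05 and -0.03 (SE 0.03, 0.03 and 0.02). Since the non-tumour groups hold 1 array each, they were assumed to vary like the tumours, and tumours 1 to 5 came from older mice than either, so that the effects of tumour and of age cannot be told apart. A test of all tumours together also does not show what is particular to tumour 4 or 5.

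How the level depended on probe brightness was examined next, because the ratio of a dim probe carries more background. Each autosomal probe was placed in 1 of 4 equal signal classes by its signal on the wild-type array, whose scanner output alone was used. Dim probes had higher ratios than bright probes on all 8 arrays and on all autosomes together. In tumour 5, chromosome 9 stood at -0.14, -0.24, -0.33 and -0.44 from the dimmest to the brightest class, while the other autosomes stood at 0.16, 0.08, -0.00 and -0.11. Set against other autosomal probes of equal signal, chromosome 9 of tumour 5 was lower by nearly the same amount in each class, with -0.30, -0.31, -0.33 and -0.32. In tumour 4 the differences were -0.13, -0.14, -0.14 and -0.13, where the other autosomes stood at 0.58, 0.19, -0.11 and -0.46. The differences lay between -0.02 and 0.02 in the other tumours, between -0.01 and 0.01 in the normal FEAT liver and between -0.01 and 0.00 in the wild-type liver. They are taken from the mean of the other autosomes, and the chromosome level of -0.09 in tumour 4 from the autosomal median. Their sizes are therefore not directly comparable with that level.

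Tumour 5 was the lowest array and tumour 4 the next lowest in each of the 4 classes after this matching, while the order of the other 6 arrays, which lay close together, changed between classes. Before matching, tumour 4 ranged from 0.45 in the dimmest class to -0.59 in the brightest, where it lay below tumour 5. The SE of each class's difference over probes was at most 0.01. Neighbouring probes share a DNA preparation and a hybridisation, so that this SE covers measurement noise within an array only. In tumour 5, probes with and without a gene name had a mean of -0.29 each.

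**Figure D4:**
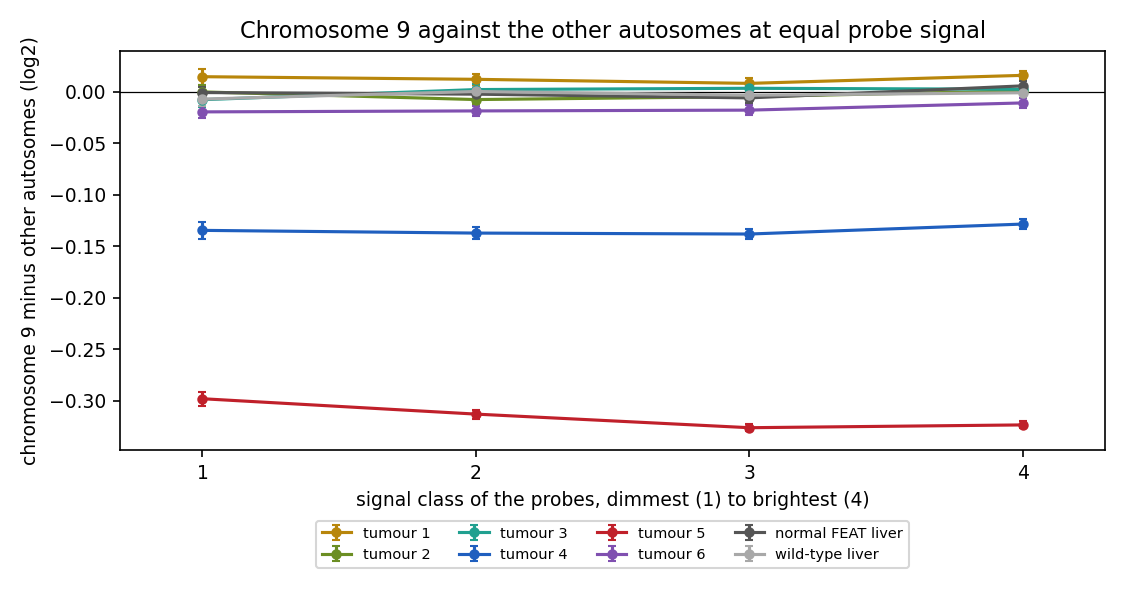
Mean log2 ratio of chromosome 9 minus that of the other autosomes (vertical axis) in 4 equal classes of the autosomal probes by their signal on the wild-type array, dimmest to brightest (horizontal axis), with 1 line per array and bars for the SE over probes. Tumour 5 lies between -0.33 and -0.30 and tumour 4 between -0.14 and -0.13 in all 4 classes, and the other 6 arrays lie within 0.02 of 0.

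Breakpoints inside the chromosome were sought by dividing the ordered probes into segments of even level, and a segment was called lost or gained at or beyond 0.2 in either direction. Tumour 5 had 99.4% of its chromosome 9 probes in lost segments, against 11.6% of all its autosomal probes. Its segments lie close to the threshold, and the share was 3.0% with a threshold of 0.3. In tumour 4 the share was 7.32%, against 0.656% of its autosomal probes. Lost segments held 0% on the other 6 arrays, where the autosomal shares were 9.2% in tumour 1, 0.0225% in tumour 2, 0.0242% in tumour 3, 0.0495% in tumour 6, 0.047% in the normal FEAT liver and 0.00506% in the wild-type liver. Gained segments held 0.483%, 0.0508%, 0%, 0%, 0.162% and 0.0422% of chromosome 9 probes in tumours 1 to 6, against 0.0505% in the normal FEAT liver and 0.136% in the wild-type liver, where 4.21%, 0.0377%, 0.00548%, 7.01%, 13.9%, 0.0151%, 0.00822% and 0.0639% of the autosomal probes of these arrays, in the same order, were gained. Since the rule used these levels, nothing is read from the distance to the autosomal shares. Chromosome 9 was divided into 7, 4, 1, 6, 9 and 3 segments in tumours 1 to 6, against 3 in the normal FEAT liver and 6 in the wild-type liver, where the median autosome of the same array had 7, 5, 1, 5, 5, 2, 3 and 4.

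In tumour 5, 5 lost segments with means of -0.26, -0.32, -0.29, -0.28 and -0.30 covered 120 Mb, and the 8 breakpoints between them only set off short stretches. The largest lost segment held 4993 probes over 48.7 Mb and had the most probes named Opcml. The first lost segment ended at Zfp75, where a stretch of 54 probes with olfactory receptor genes, from position 19515214 to position 20047456, stood at -0.09 and was not called. This stretch was also higher than its surroundings on other arrays. Tumour 1 had a gained segment of 57 probes at 0.30 from position 19411195 to position 19974922. The median of those probes was above that of the flanking probes by 0.20, 0.11, 0.19, 0.31, 0.15 and 0.16 in tumours 1 to 6, against 0.15 in the normal FEAT liver and 0.06 in the wild-type liver. A gained segment of 11 probes at 0.49 was called within the same stretch in the wild-type liver, with most of its named probes at Zfp75. Olfactory receptor genes encode smell receptors and stand in clusters of similar sequence, and whether probes there bind DNA of other loci was not tested. The wild-type liver had 1 more gained segment, 5 probes at 0.58 from position 67933405 to position 67974928 with most named probes at AK049557, where the medians were 0.27, -0.11, 0.41, 0.74, -0.08 and 0.24 in tumours 1 to 6, against 0.15 in the normal FEAT liver and 0.38 in the wild-type liver.

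Other breakpoints of tumour 5 bounded 3 gained segments of few probes. Between BC005471 and Anln, 5 probes from position 22204039 to position 22222951 stood at 0.29, where Anln encodes the cytokinesis protein anillin. Their medians on the other arrays were 0.06, 0.27, 0.54, -0.06 and 0.05 in tumours 1, 2, 3, 4 and 6, against 0.37 in the normal FEAT liver and 0.10 in the wild-type liver. Within Lipc, the gene of hepatic lipase, 8 probes from position 70896539 to position 70938668 stood at 0.22, with breakpoint steps of 0.52 (SE from probe noise 0.08) and -0.51 (SE 0.08). Medians there were 0.03, 0.00, 0.26, 0.12 and 0.24 in tumours 1, 2, 3, 4 and 6, against 0.30 in the normal FEAT liver and -0.06 in the wild-type liver. Both sets of probes thus stood above 0 in the normal FEAT liver as well.

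The third of these segments was the one most often called. It held 6 probes named AK033168 over 51.3 kb, from position 110229378 to position 110280690, between probes of Kif9, a kinesin motor gene, and 3 further AK033168 probes, which are followed by those of BC059049. Those 3 further probes lay outside the gained segment on each array where it was called, and read -0.24, 0.11 and -0.20 in the normal FEAT liver. The array describes BC059049 as SET domain containing 2, and in a RefSeq table of assembly GRCm38.p6 Setd2, a histone methyltransferase gene, lies between Kif9 and Nradd. A gained segment was called here in tumour 2 with a mean of 0.70, in tumour 5 with 0.24 and in the normal FEAT liver with 0.79, and in tumour 6 over 5 probes, from the last Kif9 probe to the fourth AK033168 probe, with 0.83. These 6 probes had medians of 0.07, 0.69, -0.01, 0.11, 0.33 and 0.69 in tumours 1 to 6, against 0.85 in the normal FEAT liver and -0.15 in the wild-type liver.

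Set against the median of flanking probes, the differences were 0.09, 0.74, 0.00, 0.24, 0.67 and 0.72 in tumours 1 to 6, against 0.87 in the normal FEAT liver and -0.10 in the wild-type liver. With the mean of the 6 probes in place of their median, the difference was 0.73 in tumour 2, 0.54 in tumour 5 and 0.72 in tumour 6, against 0.81 in the normal FEAT liver, so that tumour 5 was close to tumours 2 and 6 by the median and lower than both by the mean. The second AK033168 probe alone, at position 110235349, read 0.79, 1.10, 0.81, 1.33, 0.45 and 1.47 in tumours 1 to 6, against 1.36 in the normal FEAT liver and -0.40 in the wild-type liver. It was higher in all 6 tumours and in the normal FEAT liver than in the wild-type liver, which did not hold for every probe of the segment. The fifth AK033168 probe read -0.38, 0.30, -0.26, -0.78, -0.23 and 0.15 in tumours 1 to 6. There the normal FEAT liver read 0.23 and the wild-type liver -0.22, above tumours 1, 3, 4 and 5. At the sixth, tumours 1, 3 and 4 read -0.08, 0.01 and -0.04, below the wild-type liver at 0.12. The fourth AK033168 probe read 0.01, 0.90, -0.22, 0.30, 0.07 and 0.75 in tumours 1 to 6, against 1.01 in the normal FEAT liver and -0.10 in the wild-type liver. With 1 array per non-tumour group, the segment was not tested between groups. The 2 probes of BC059049 lie beyond the segment, and in tumour 5 they belong to the last lost segment, but were not low themselves. The first read 0.46, 0.18, 0.63, 0.44, -0.03 and 0.62 in tumours 1 to 6, against 0.78 in the normal FEAT liver and -0.23 in the wild-type liver. For the second, the values were 0.40, 0.37, 0.00, 0.36, 0.01 and 0.45 in tumours 1 to 6, against 0.49 in the normal FEAT liver and 0.37 in the wild-type liver.

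**Figure D5:**
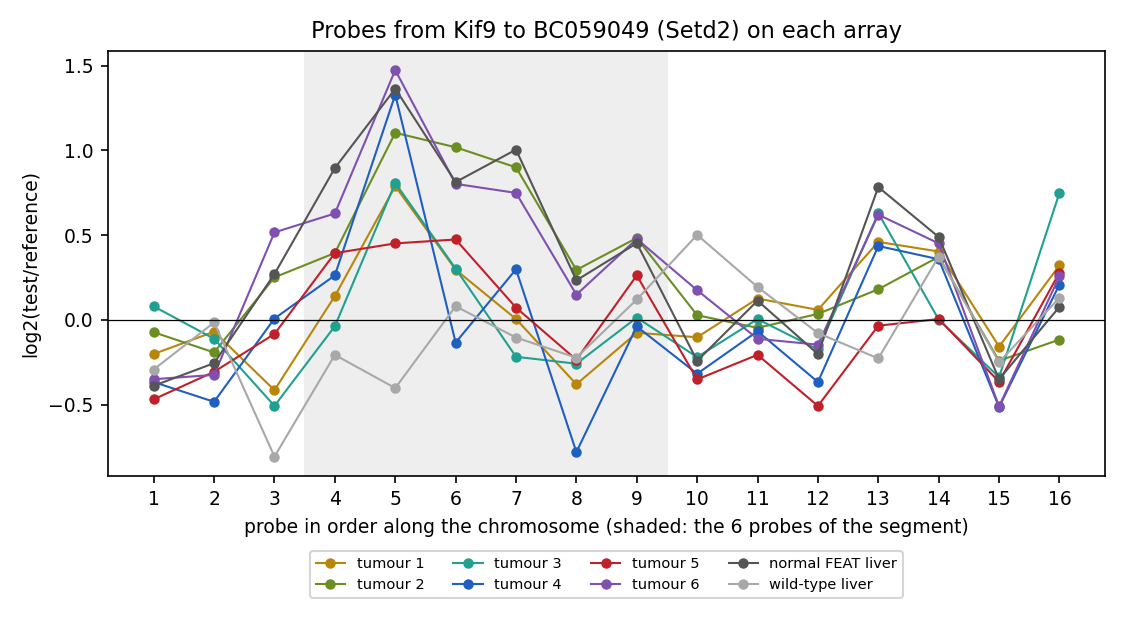
Log2 ratio (vertical axis) of 16 neighbouring probes from Kif9 to beyond BC059049 in their order along the chromosome (horizontal axis), with 1 line per array and the 6 probes of the segment shaded. The normal FEAT liver and tumours 2 and 6 stay above 0.1 over the shaded probes, and the fifth probe reads between 0.45 and 1.47 on every array except the wild-type liver at -0.40.

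Tumour 4 had 2 lost segments and 5 breakpoints. The first lost segment, 259 probes from position 20514235 to position 21991345, stood at -0.28 between breakpoints at Fbxl12 and M26410. It holds Keap1, the adaptor that directs degradation of the antioxidant regulator Nrf2, and Smarca4, a subunit of SWI/SNF chromatin remodelling complexes. The 258 to 265 probes with a value in this stretch had medians of -0.10, -0.04, 0.00, -0.28, -0.34 and -0.01 in tumours 1 to 6, against -0.04 in the normal FEAT liver and -0.06 in the wild-type liver. Relative to the median of flanking probes, the differences were -0.13, -0.08, -0.08, -0.30, -0.08 and -0.07 in tumours 1 to 6. On the normal FEAT array it was -0.12, and on the wild-type array -0.06. This stretch thus lay below its flanks on every array, and furthest below them in tumour 4. A second lost segment, 608 probes from position 41506637 to position 46890075, stood at -0.21 between AK084170 and AK038437. It holds Sc5d, a sterol desaturase of cholesterol synthesis, Cbl, a ubiquitin ligase for receptor tyrosine kinases, and the apolipoprotein genes Apoa1, Apoc3, Apoa4 and Apoa5. The breakpoint between Dock3 and Mapkapk3 began a distal segment at -0.14 that was not called.

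These steps in tumour 4 were small, between 0.07 and 0.27 in absolute size, on the noisiest of the 8 arrays. After correction for GC content in a window of 500 kb, tumour 4 had 1 segment over the whole chromosome at -0.08, 0% of its probes were in lost segments, and the window around Keap1 moved to -0.20 from the uncorrected -0.28. The share also fell to 0% with centring on the mode, a penalty factor of 4, a calling threshold of 0.3 or the normal FEAT liver subtracted.

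For the genes of the chromosome, the mean of all probes within 0.5 Mb of a gene was taken, since single probes are noisy. The lists below were chosen with earlier results of these data known, and genes on 1 chromosome share its level, so that they are not independent observations. Of 66 list genes, 59 were found on chromosome 9 of the array. In tumour 5, 58 of the 59 had their midpoint in a lost segment, against 14.1% of all autosomal gene names, and in tumour 4, 11 of 59, against 1.05%. Of the chromosome 9 probes themselves, 99.4% lay in lost segments in tumour 5 and 7.32% in tumour 4. These shares are the nearest background given for the counts of each list below, and the count of tumour 5 restates the share of the chromosome. They are shares of probes, and the share of chromosome 9 gene names is not given. In tumour 4, lost segments held 0.656% of autosomal probes but 1.05% of autosomal gene names. A share of probes can thus understate the background for genes, and nothing is read from the counts of tumour 4. The 11 genes of tumour 4 include the neighbours Apoa1, Apoc3, Apoa4 and Apoa5. On the other 6 arrays 0 of the 59 were called, and their windows ran from -0.12 to 0.15. Over the 59 windows the median was -0.31 in tumour 5, with a range from -0.35 to -0.22, and -0.12 in tumour 4, with a range from -0.28 to 0.04. The order of genes within tumour 5 therefore spans 0.13, and the exception to the loss call, Lipc, lies in its own small segment with a window mean of -0.27.

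Among liver metabolism genes and secreted liver proteins, 13 of 14 were in lost segments in tumour 5 and 6 of 14 in tumour 4. Apoa1, the main protein of high-density lipoprotein, stood at -0.05, -0.04, 0.04, -0.21, -0.34 and -0.06 in tumours 1 to 6, against -0.01 in the normal FEAT liver and -0.01 in the wild-type liver. Tumours 4 and 5 were the lowest of the 8 arrays, and the other tumours lay on either side of the non-tumour livers. Cyp1a2, a drug-metabolising cytochrome of hepatocytes, stood at -0.04, -0.02, 0.06, -0.20, -0.34 and -0.04 in tumours 1 to 6, against -0.06 in the normal FEAT liver and -0.05 in the wild-type liver, but lay in no called segment in tumour 4. Trf, the gene of the iron carrier transferrin, was at -0.27 in tumour 5 and -0.08 in tumour 4, against 0.00 in the normal FEAT liver and 0.01 in the wild-type liver.

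Of the oxidative stress genes, 5 of 5 on the array were in lost segments in tumour 5 and 1 of 5, Keap1, in tumour 4. Keap1 had window means of -0.05, -0.03, 0.02, -0.28, -0.34 and -0.07 in tumours 1 to 6, against -0.08 in the normal FEAT liver and -0.06 in the wild-type liver. Its lowest non-tumour value lay above tumours 4 and 5 and below tumours 1, 2, 3 and 6. Gclc, the catalytic subunit of the enzyme that limits glutathione synthesis, was at -0.28 in tumour 5 and -0.09 in tumour 4, against 0.00 in the normal FEAT liver and 0.02 in the wild-type liver. Gpx1, a glutathione peroxidase, was at -0.29 and -0.14 in tumours 5 and 4, against -0.01 in the normal FEAT liver and 0.01 in the wild-type liver.

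All 12 tumour suppressor genes found were in lost segments in tumour 5, and 2 of 12, Smarca4 and Cbl, in tumour 4. Tgfbr2, a receptor of transforming growth factor beta, stood at -0.00, 0.04, 0.04, -0.11, -0.31 and -0.02 in tumours 1 to 6, against -0.03 in the normal FEAT liver and -0.01 in the wild-type liver. Smad3, which carries the signal of that receptor to the nucleus, was at -0.27 in tumour 5 and -0.08 in tumour 4, against 0.03 in the normal FEAT liver and 0.05 in the wild-type liver. Atm, a kinase of the response to DNA breaks, was at -0.33 in tumour 5 and -0.08 in tumour 4, against -0.01 in the normal FEAT liver and 0.02 in the wild-type liver.

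Of the oncogenes and growth signalling genes, 13 of 13 were in lost segments in tumour 5, with a median of -0.30, where that of the tumour suppressors was -0.31. In tumour 4, 1 of 13 was, Bcl9l, a coactivator of beta-catenin, and the medians of these lists were -0.08 and -0.15. The lists were not tested against each other. Ctnnb1, the gene of beta-catenin, near the telomere side, stood at -0.03, -0.02, 0.03, -0.22, -0.30 and -0.09 in tumours 1 to 6, against -0.09 in the normal FEAT liver and -0.02 in the wild-type liver. Yap1, the effector of the Hippo pathway near the centromere side, stood at 0.06, 0.03, 0.06, -0.03, -0.22 and -0.05 in tumours 1 to 6, against 0.00 in the normal FEAT liver and 0.06 in the wild-type liver. Yap1 had the highest window of the 59 genes in tumour 5, and its neighbours Birc3 and Birc2, inhibitors of apoptosis, followed at -0.23 and -0.24.

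Cell cycle and DNA damage genes were in lost segments in 9 of 9 cases in tumour 5 and in 1 of 9, H2afx, in tumour 4. Chek1, a checkpoint kinase, had the lowest window of tumour 5 at -0.35, and stood at -0.18 in tumour 4, against -0.06 in the normal FEAT liver and 0.03 in the wild-type liver. Chemokine receptor genes at the telomere end were in lost segments in 6 of 6 cases in tumour 5, between -0.34 and -0.29, and in 0 of 6 in tumour 4. Ccr2, a receptor of monocytes and the last of them along the chromosome, stood at -0.31 in tumour 5 and -0.01 in tumour 4, against 0.01 in the normal FEAT liver and 0.01 in the wild-type liver.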

How the data were processed

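Genomic DNA of 8 livers was hybridised to 2-colour Agilent 244A arrays, with test DNA in Cy3 and reference DNA in Cy5, per the labels. The deposited values are log2 ratios. On the wild-type array they equal the log10 ratio of the scanner file, red over green per the file headers, turned in sign and put on the log2 scale, plus 0.0014, so higher means more test DNA. For the other 7 arrays the direction rests on the dyes in the labels. Signal intensity and other spot flags come from that deposited scanner file, made with Agilent Feature Extraction 9.1.3.1 and protocol CGH-v4_91 per the file headers. CGH analytics 3.4 was used per the labels' description of the series.

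Spots of 1 probe were averaged. The autosomal median was subtracted from each array, and neither loess nor quantile normalisation was applied. Values were limited to 3 noise SDs around the running median of 5 probes, and chromosomes were divided by penalised least squares (penalty factor 2, at least 5 probes per segment) and called at 0.2. Noise SEs assume independent probes. Bins of 1 Mb with at least 20 probes were tested with limma 3.58.1 in R 4.3.3. Python 3.11.15, numpy 2.4.6, pandas 2.3.3 and matplotlib 3.10.9 were used. The segmentation and limma were also run on simulated data with independent normal noise, and the outcome is not reported here. Those data had no trend with GC content or signal, and no planted segment as short as the minimum of 5 probes. GC content came from probe sequences.

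The chromosome, the gene lists and the rules were chosen with earlier results of these data known. Named were list genes on chromosome 9 (up to 30), genes at breakpoints of tumours 4 and 5, segments under 3 Mb by their most frequent gene name, and the 3 bins on each side with the smallest p. Setd2 was matched through the description of BC059049. Replicates were numbered in accession order. Alternatives covered centring, GC content, marked probes, threshold, penalty, probe minimum, bin size, gene window, subtraction of either non-tumour liver, brighter probes and each array left out. Some genes of the lists are not reported here by name.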

Additional observations from a re-analysis of the deposited data

Results flagged for a closer look

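Among 75 quantities of chromosome 9 with a value in each of the 6 tumours, 20 had a tumour far from the others by the gap between neighbouring values relative to the whole range (Dixon's criterion at 95%), which chance flags in about 1 of 20 groups. Since the chromosome was chosen for its low level in tumour 5, most of these restate that choice. The 75 are not all distinct. The AK033168 segment of the same bounds is counted separately for tumour 2, tumour 5 and the normal FEAT liver, with identical medians. Windows of neighbouring genes overlap, and those of Apoa1 and Apoc3 are identical. The SD of the 121 bins was 0.082 in tumour 4, and between 0.03 and 0.05 in the other tumours. Probe noise alone gives an SD of 0.053 for these bins in tumour 4, and between 0.02 and 0.04 in the other tumours. Relative to that noise, tumour 4 stood at 1.57 and tumour 1 higher, at 1.79. The share of probes in lost segments was 99.4% in tumour 5, and between 0% and 7.32% in the others. The median of the olfactory receptor stretch gained in tumour 1 was -0.16 in tumour 5, and between 0.12 and 0.22 in the others.

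The remaining 17 are gene windows in which tumour 5 was low. Among cell cycle and DNA damage genes, tumour 5 stood at -0.32 around Stag1, -0.30 around Rad54l2 and -0.31 around Cdc25a. Around the chemokine receptor genes Ccr9, Xcr1, Ccr1, Ccr3 and Ccr2 it stood at -0.32, -0.32, -0.34, -0.32 and -0.31, where the other tumours lay between -0.05 and 0.06. Around Acat1 and Lipc, it stood at -0.33 and -0.27. Among oncogenes and growth signalling genes, it stood at -0.23 around Birc3, -0.32 around Fli1, -0.31 around Ets1, -0.26 around Pik3cb and -0.26 around Mras. Among tumour suppressors, it stood at -0.26 around Sdhd and -0.33 around Atm.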

How the results depend on the processing

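The chromosome level of each array moved by less than the spread between tumours under all alternatives, as did all 118 recomputed gene windows. That spread, an SD of 0.13 for the chromosome level, is larger than the departure of tumour 4 from 0, at -0.09. It is therefore too wide to judge whether the level of tumour 4 held. No bin of chromosome 9 passed limma's test under any of 13 alternatives (0 each), and the end-to-end difference kept its direction, between 0.0026 and 0.0054 with 1 array left out (exact permutation p between 0.0952 and 0.571). The number of segments and the shares of tumour 4 depended on the settings. With a penalty factor of 1, segments numbered 29, 30, 21, 25, 37 and 14 in tumours 1 to 6, 23 in the normal FEAT liver and 35 in the wild-type liver, and lost shares were 0.280% in tumour 1, 0.690% in tumour 3, 4.47% in tumour 4, 0.203% in tumour 6, 0.749% in the normal FEAT liver and 0.602% in the wild-type liver. With a penalty factor of 4, segments numbered 2, 1, 2, 2 and 1 in tumours 1, 2, 4, 5 and 6, 1 in the normal FEAT liver and 1 in the wild-type liver, and tumour 4 had a lost share of 0%. With at least 10 probes per segment, tumour 6 and the normal FEAT liver had 1 segment each. After GC correction, tumours 1, 4, 5 and 6 had 3, 1, 4 and 1 segments, and tumour 4 a lost share of 0%, as it had with centring on the mode (0%).

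With the normal FEAT liver subtracted, an alternative added after the data were seen, tumours 1 to 6 had 4, 1, 5, 11, 1 and 1 segments, with lost shares of 0.0594% in tumour 1, 0.0591% in tumour 3 and 0% in tumour 4. With the wild-type liver subtracted, tumours 1, 3 and 5 had 2, 3 and 4 segments, and tumour 4 a lost share of 2.19%. The calling threshold decided the loss call of tumour 5, whose segments lie close to it: the lost share of tumour 5 was 3.0% at 0.3, and that of tumour 4 was 23.6% at 0.1 and 0% at 0.3. Apart from the threshold and the subtractions, whose effect follows from their construction, the cause of these changes was not tested. Probe noise sets what can be seen. Segments of 5 or 6 probes lie at or near the minimum of 5 probes per segment, and how reliably they are found on noisy arrays was not tested.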
